A study of Homo sapiens with 2 samples.

Results

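The genes described here are 10 genes of the TGF-beta and BMP pathways: the ligands BMP4, BMP2, TGFB1 and TGFB2, the intracellular inhibitors SMAD6, SMAD7 and SKIL, and the targets ID1, ID2 and ID3. They were taken by name and by gene ID from the annotation of the arrays, which gave 19 of 45033 probe sets, or 10 of 23619 genes. Both names and gene IDs selected the same number of probe sets. HCT15, an established human colorectal cancer line, carried either an shRNA against LYAR, a zinc-finger protein of the nucleolus, or a scramble shRNA (Scramble-shRNA), in both cases from a lentiviral vector with a GFP marker on which the infected cells were sorted. Each condition was hybridised to 1 single-colour array, 2 arrays in all, the scramble-shRNA one being called the control array here, and the labels do not say which of several LYAR hairpins was used. Both cultures were grown in serum and no added ligand, inhibitor or other treatment is named in the labels. Every difference given is on the log2 scale, LYAR shRNA minus scramble shRNA, and describes these 2 arrays with no replicate check and no test.

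TGF-beta and BMP proteins are secreted ligands that bring together type I and type II receptor kinases at the cell surface. The activated receptors phosphorylate SMAD proteins, chiefly SMAD2 and SMAD3 for TGF-beta and SMAD1, SMAD5 and SMAD9 for BMP, which enter the nucleus with SMAD4. The ID genes are classical immediate targets of the BMP branch and encode helix-loop-helix proteins without a DNA-binding region, which hold E proteins away from DNA. SMAD6, SMAD7 and SKIL act back on the pathway as inhibitors, and in the colon BMP signals are known for promoting differentiation along the crypt.

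The random control probes measured 30.3 on the LYAR-shRNA array and 32.7 in the control, and a value under 2 times that (60.7 and 65.4) was taken as near background. LYAR itself, read by 1 probe set, measured 1036 and 1925 (-0.89), which left 53.8% of the control level. Counts were taken over the 12682 genes that reached 105.9, the median over all genes, on at least 1 array, and their median difference was 0.05. Probe sets of the same passing gene had a pooled SD of 0.463 overall. By 3 equal groups of brightness it was 0.230 among the brightest and 0.658 among the dimmest. That spread is between probe sets of the same array and is not a replicate error. Markers of colon epithelium passed for 8 of 10 genes with differences from -0.10 to 0.52, summing to an intensity of 115773 and 118375, while KRT20 and CDX1 did not pass.

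ID1 and ID3 were lower on the LYAR-shRNA array while ID2 was slightly higher, and the abundant ligand BMP4 was higher. TGFB1 and SMAD7 lay close to 0, and the remaining members were at or near background on 1 or both arrays. Of the 8 members that passed the filter, 1 was at least 2-fold higher (TGFB2), where 5.06% of all passing genes were. None of the 8 was at least 2-fold lower, against 3.56% of passing genes. The balance over all passing genes depended on the scaling, with 642 genes at least 2-fold higher and 452 lower as deposited and 522 and 582 with the arrays centred on their medians. At 1.5-fold these counts were 1903 and 1393 as deposited and 1542 and 1714 when centred. At 1.5-fold, 3 were higher (TGFB2, BMP2 and BMP4), against 15.0%, and 1 was lower (ID1), against 11.0%. Among the 4228 brightest genes, which hold 5 members, BMP4 was the 1 member at least 1.5-fold higher, against 6.08%, and ID1 the 1 member lower, against 6.05%. With so few members, each of these counts rests on 1 to 3 genes, and TGFB2 and BMP2 passed the filter through the LYAR-shRNA array alone, which fixes their sign. The median difference of the 10 members was 0.22, and of the 8 that passed 0.01, beside 0.02 over all genes and 0.05 over all that passed.

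**Figure D1:**
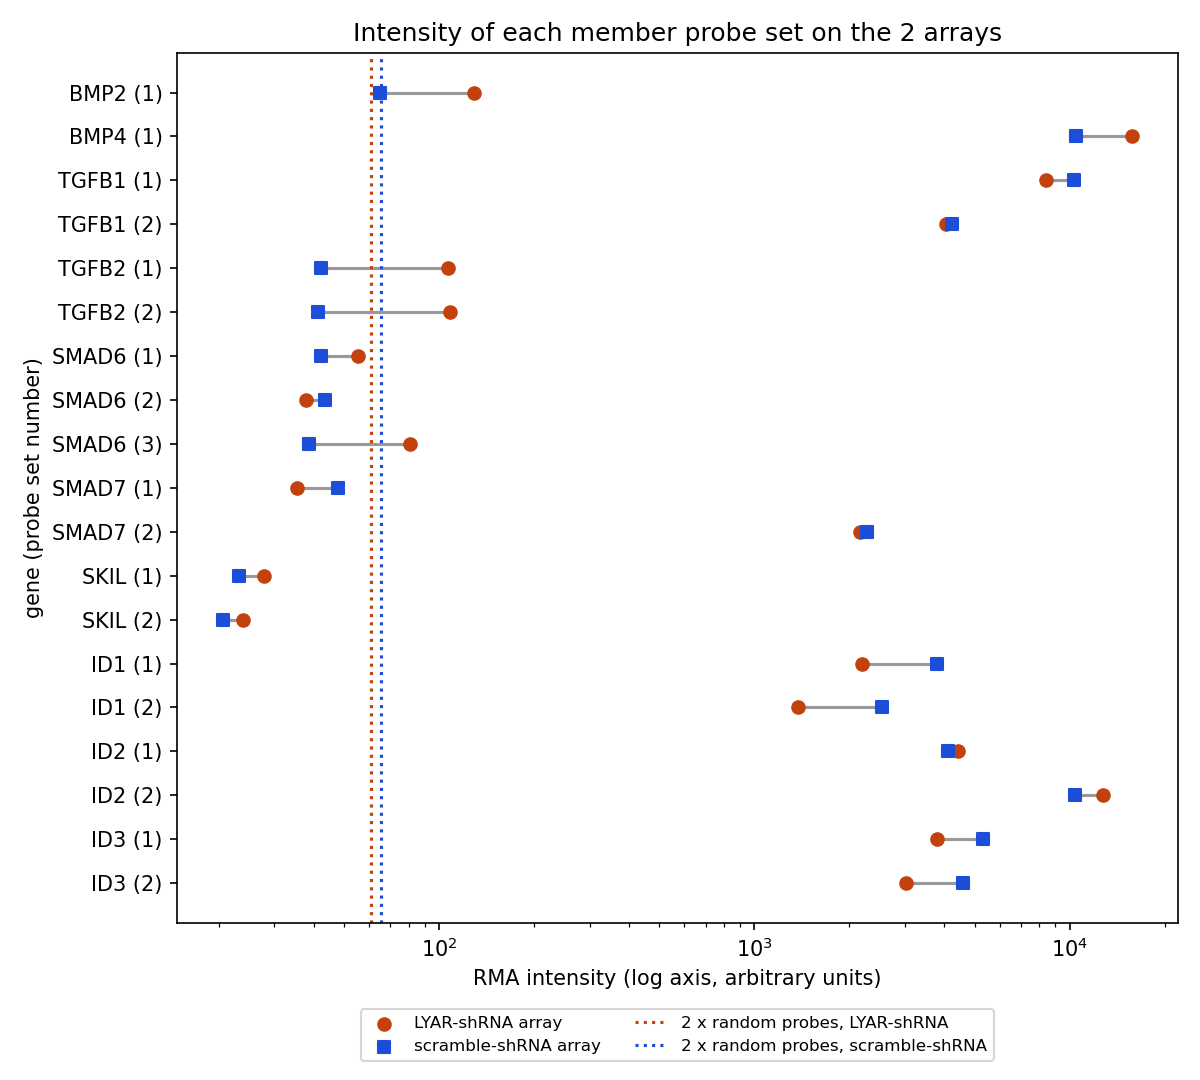
RMA intensity (log axis, arbitrary units) of the 19 probe sets of the 10 genes on the LYAR-shRNA array (circles) and the scramble-shRNA array (squares), with dotted lines at 2 times the random control probes (60.7 and 65.4). Both ID1 and both ID3 probe sets have the circle to the left of the square, BMP4 has it to the right, and all SKIL values lie left of the lines.

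BMP4, a BMP ligand made by many colorectal cancer cells, was the ligand with the clearest difference. Its single probe set, at hg18 chromosome 14, from 53486206 to 53493362, measured 15768 with LYAR shRNA and 10471 in the control. These were 520 and 320 times the random probes. The difference was 0.59, or 1.51-fold, and 5.94% of the brightest genes lay further toward higher values. It fell under 1.5-fold with the arrays centred on their medians, at 0.52, and with quantile normalization, at 0.58.

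BMP2, a second BMP ligand that also acts in bone and gut, was much nearer to background. Its probe set on chromosome 20 from 6697206 to 6707769 measured 129 on the LYAR-shRNA array, 4.27 times the random probes, and 65.2 on the control array, just under the limit of 65.4. The difference is therefore a bound, at least 1.98-fold toward the LYAR-shRNA array, and as measured it was 0.99.

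TGFB1, the most widely expressed TGF-beta isoform, lay near 0. Its probe sets on chromosome 19, between 46528490 and 46551656, measured 8391 against 10299 and 4053 against 4242. Both were lower on the LYAR-shRNA array, at -0.30 and -0.07, with a mean of -0.18. That is within the probe-set SD of bright genes, which describes single probe sets and not a mean of them. Of the brightest genes, 29.1% lay further toward lower values.

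For TGFB2, an isoform known from mesenchymal and neural tissue, signal above background was seen on the LYAR-shRNA array only. The probe sets on chromosome 1, between 216586199 and 216682101, measured 107 and 108 there and 42.1 and 41.3 on the scramble-shRNA array. Both scramble-shRNA values were near the random probes, at 1.29 and 1.26 times, so TGFB2 was at least 1.64-fold higher, the smaller of its bounds. The difference as measured was 1.37, against values that are not well above background. With values raised to the background limit it was 0.72, which is under 2-fold. TGFB2 is also in the dimmest group, where 5.04% of genes lay further toward higher values than its difference as measured.

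Among the inhibitors, only SMAD7 had a probe set well above background on both arrays. SMAD7, which blocks type I receptors of both branches and is itself induced by TGF-beta, measured 2157 and 2268 in its bright probe set on chromosome 18 from 44700220 to 44731079. That probe set differed by -0.07. The other, BC074818, measured 35.4 and 47.9, near the random probes on both arrays. The gene mean of -0.25 therefore mixes a bright probe set near 0 with one that gives no direction.

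SMAD6, the inhibitor that acts mainly on the BMP branch, did not pass the intensity filter. It has 3 probe sets, at chromosome 15 from 64781727 to 64861380, of which BC012986 measured 55.2 and 42.3 and BC052569 37.9 and 43.5, all near the random probes. The NM_005585 probe set measured 81.1 with LYAR shRNA and 38.5 in the control, at least 1.24-fold higher. SKIL, a corepressor that binds SMADs in the nucleus, was below the random probes throughout, with 27.9 and 23.8 with LYAR shRNA and 23.1 and 20.6 in the control. No fold is given for SKIL.

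**Figure D2:**
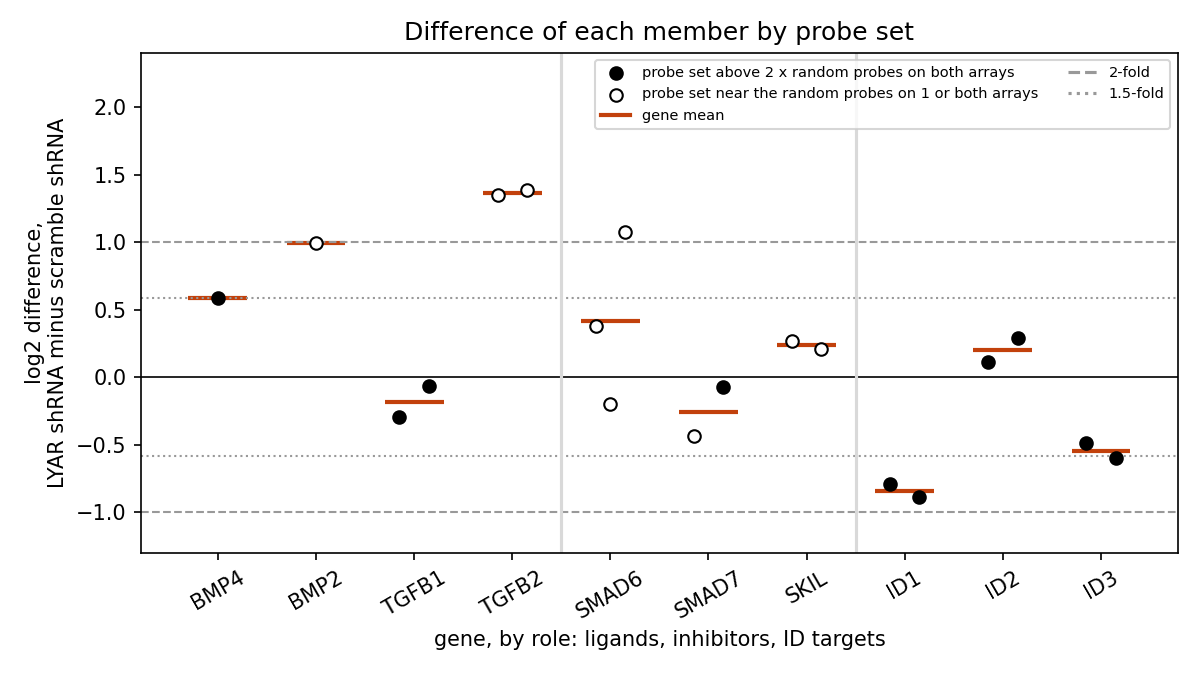
Log2 difference (LYAR shRNA minus scramble shRNA) of each probe set of the 10 genes, ordered as ligands, inhibitors and ID targets; filled points are above 2 times the random probes on both arrays, open points are not, and bars are gene means. ID1 at -0.84 and ID3 at -0.54 lie below 0 with both probe sets, ID2 at 0.20 above it, and every point of TGFB2, BMP2, SMAD6 and SKIL is open.

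The ID genes had all of their probe sets well above background, with ID1 and ID3 below 0 and ID2 slightly above it. The 250 bases before the start of each gene, from RefSeq promoter windows of GRCh38.p14, are shown because these genes are the targets on which the comparison turns. Capitals mark a CAGAC match, a SMAD-binding motif, on either strand.
ID1 promoter, chr20:31605039-31605288, strand plus: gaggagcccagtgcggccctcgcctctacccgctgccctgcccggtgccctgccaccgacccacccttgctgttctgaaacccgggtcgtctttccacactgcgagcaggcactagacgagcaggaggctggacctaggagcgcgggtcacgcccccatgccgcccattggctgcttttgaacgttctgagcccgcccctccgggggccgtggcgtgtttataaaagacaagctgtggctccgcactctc
ID2 promoter, chr2:8681806-8682055, strand plus: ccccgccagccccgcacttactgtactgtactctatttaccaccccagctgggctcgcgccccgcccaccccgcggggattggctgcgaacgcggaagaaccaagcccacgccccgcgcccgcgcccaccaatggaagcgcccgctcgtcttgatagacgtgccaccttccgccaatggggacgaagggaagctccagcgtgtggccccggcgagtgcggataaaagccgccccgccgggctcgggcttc
ID3 promoter, chr1:23559502-23559751, strand minus: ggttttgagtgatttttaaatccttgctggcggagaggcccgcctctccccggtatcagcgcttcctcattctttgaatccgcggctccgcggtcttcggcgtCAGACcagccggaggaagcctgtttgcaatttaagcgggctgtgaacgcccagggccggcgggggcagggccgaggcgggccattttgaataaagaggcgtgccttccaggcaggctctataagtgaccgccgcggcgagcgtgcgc
The windows of 300 bases were searched on both strands for 4 motifs. CAGAC, marked above, occurs in 45.3% of all 35116 promoter windows. The palindromic SMAD-binding element was searched as GTCTAGA, which occurs in 1.44%. A GC-rich motif bound by SMAD1 and SMAD5, GGCGCC, occurs in 19.2%. The motif known for LYAR at a globin gene, GGTTAT, occurs in 5.36%. In the windows of the ID genes no matches overlapped. ID3 held 1 CAGAC, 147 to 143 bases before its start, and the windows of ID1 and ID2 held none of the 4 motifs. Each window reaches 250 bases before and 50 after the start, and sequence further away was not searched.

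ID1, which keeps epithelial and endothelial progenitors from differentiating, measured 2200 and 1373 in its probe sets on the LYAR-shRNA array. The same probe sets measured 3807 and 2536 on the scramble-shRNA array, and both are annotated on chromosome 20 from 29656752 to 29657974. They gave -0.79 and -0.89, a gap of 0.09, and the gene mean of -0.84 was a level of 55.9% of the control. Of the brightest genes, 87 of 4228 (2.06%) lay further toward lower values, so ID1 was far out for its brightness without reaching 2-fold.

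ID3, which shares much of its activity with ID1, differed in the same direction by less. Its probe sets on chromosome 1, between 23757007 and 23758872, measured 3787 and 3024 with LYAR shRNA and 5311 and 4577 in the control. They gave -0.49 and -0.60 with a mean of -0.54, or 68.6% of the control, and 7.10% of the brightest genes lay further toward lower values. ID3 stood just under 1.5-fold and passed it with the arrays centred on their medians, at -0.62.

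ID2, which is also known as a target of Wnt signalling in colon cancer cells, lay slightly above 0. Its probe sets on chromosome 2, between 8739563 and 8742034, measured 4439 and 12727 on the LYAR-shRNA array against 4110 and 10379 on the scramble-shRNA array. Those are differences of 0.11 and 0.29, with a mean of 0.20. That is within the probe-set SD of bright genes, which describes single probe sets and not a mean of them. Of the brightest genes, 29.2% lay further toward higher values than ID2, which was at 0.13 with the arrays centred. The difference of ID2 exceeded the mean of ID1 and ID3 by 0.89, and no replicate shows how much such a gap varies between cultures.

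**Figure D3:**
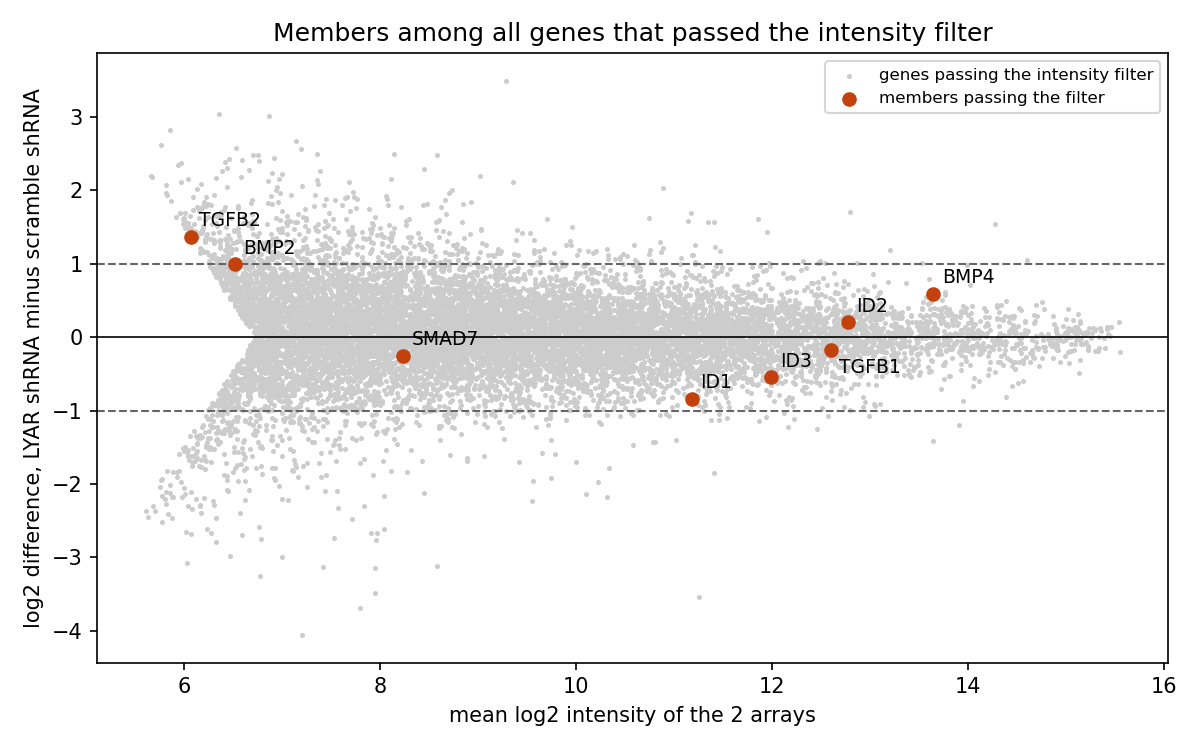
Log2 difference (LYAR shRNA minus scramble shRNA) against mean log2 intensity for the 12682 genes that passed the filter (grey) and the 8 of the 10 genes that passed (coloured), with dashed lines at 2-fold. TGFB2 and BMP2 sit at the dim edge that the filter cuts, ID1 and ID3 lie toward the lower edge of the bright genes and BMP4 toward the upper edge.

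The ID genes were set against the ligands by their mean, which was -0.39 over ID1, ID2 and ID3. Only BMP4 and TGFB1 gave ligand values well above background on both arrays. The ID mean was 0.98 below BMP4, and that gap kept a size of 0.92 to 1.00 under the alternatives run. It was 0.21 below TGFB1, but the difference was -0.03 with the brightest probe set of each gene, and ID2 at 0.20 lay above TGFB1 at -0.18. As measured, the ID mean was 0.99 below the mean of TGFB1 and TGFB2 and 1.18 below that of BMP2 and BMP4. Both of these take in a ligand that was near background in the control and passed through the LYAR-shRNA array alone, so the choice of passing genes fixes that ligand's sign. With values raised to the background limit they were 0.66 and 1.18.

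The wider pathway, 132 genes in 10 overlapping lists of which 7 are members, showed no common direction. Of the 74 that passed the filter, 38 were above 0 and 36 below, with 7 past 2-fold on the higher side and 4 on the lower side, beside 5.06% and 3.56% of all passing genes. With the arrays centred, and also with quantile normalization, these were 5 and 6. The median difference was -0.02 over all 132 and 0.01 over those that passed, close to that of all genes. Of these 11, TGFB2, INHBE, GDF9 and RNF111 had values near background on 1 or both arrays in every probe set or most of them. TGFB2, INHBE and RNF111 passed through the LYAR-shRNA array alone and FST, GDF9 and INHBB through the control array alone, which fixes the sign of each.

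**Figure D4:**
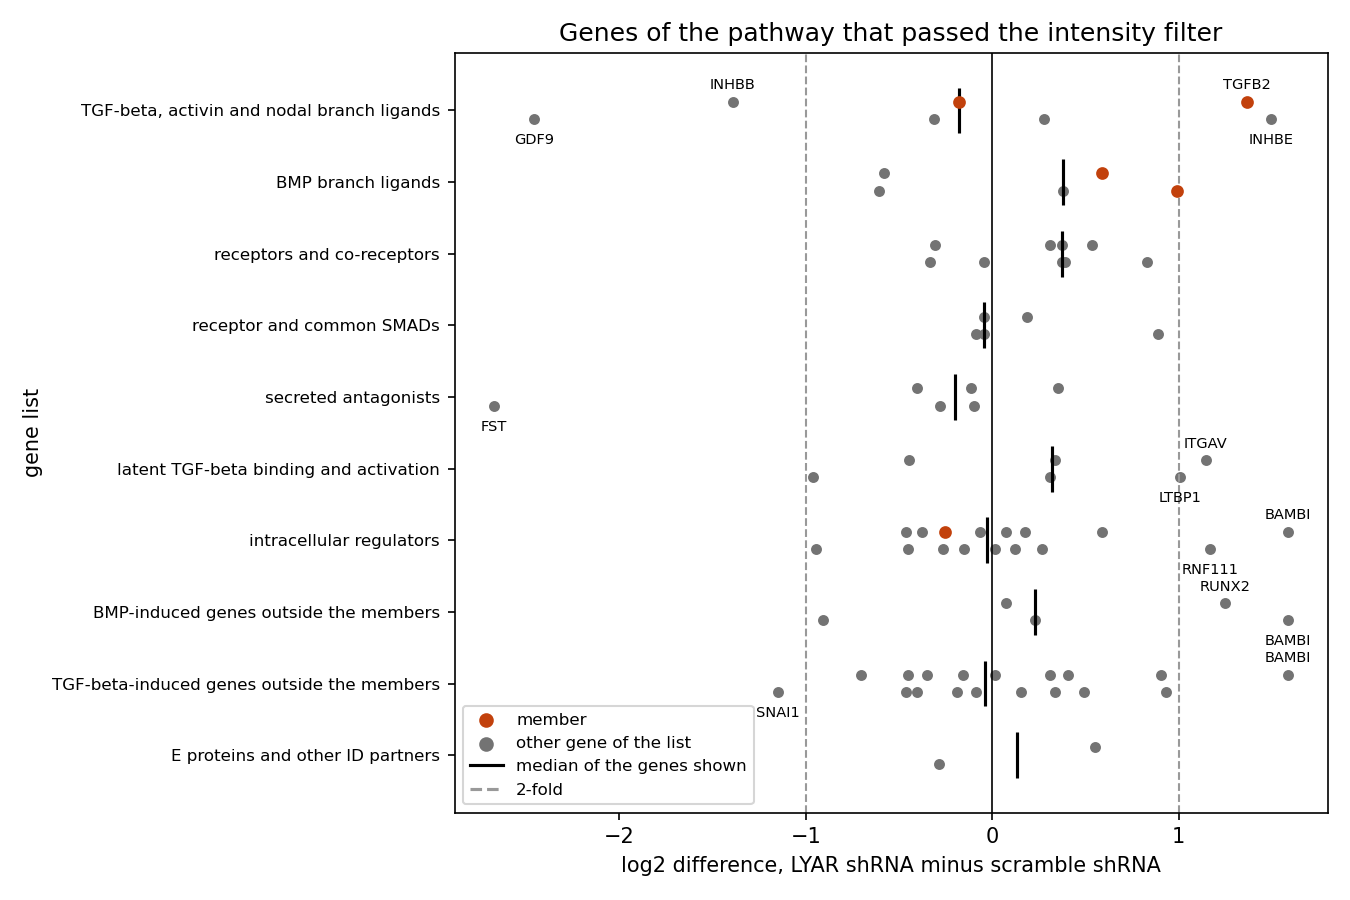
Log2 difference (LYAR shRNA minus scramble shRNA) of each pathway gene that passed the intensity filter, by list. Coloured points are the members in these lists that passed, TGFB1, TGFB2, BMP2, BMP4 and SMAD7. The lists do not hold ID1, ID2 or ID3. Bars are medians of the genes shown, dashed lines mark 2-fold, and genes past 2-fold are named. FST at -2.67 and GDF9 lie furthest toward lower values and BAMBI at 1.58 furthest toward higher values.

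Ligands beyond the members were mostly near background. In the TGF-beta, activin and nodal branch, with the members TGFB1 and TGFB2 counted, 7 of 15 passed and the median over the list was -0.02. At least 2-fold higher were 2 (TGFB2 and INHBE) and lower 2 (GDF9 and INHBB). Those counts, beside 5.06% and 3.56% of all passing genes, were 0 and 0 with the series values and with only probe sets above background on at least 1 array. With values raised to the limit 0 were higher, and with the brightest probe set 0 were higher and 1 lower. INHBB, an activin and inhibin subunit, measured 95.1 against 250, a difference of -1.39 with both probe sets from -1.44 to -1.35. GDF9, an oocyte ligand, was at least 2.28-fold lower, with 25.1 on the LYAR-shRNA array against 138. INHBE, another activin subunit, was at least 1.87-fold higher, with 122 against 43.5. The stress-induced ligand GDF15 was bright on both arrays and differed by 0.28, and GDF11 by -0.31. In the BMP branch 5 of 16 passed with none at 2-fold. Besides BMP2 and BMP4 these were AMH at -0.61, BMP5 at -0.58 and BMP8B at 0.38, whose probe sets had opposite signs (-0.29 and 1.05). BMP5, at 77.0 against 115, passed through the control array alone, which fixes its sign.

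No receptor reached 2-fold by its mean, and 2 did with the brightest probe set of each gene. Of 17 receptors and co-receptors 9 passed, with 6 above 0 and 3 below, beside 6929 of all 12682 passing genes above 0, and the median over the list was 0.17, or 0.04 with values raised to the background limit. BMPR1A, a type I BMP receptor, differed by 0.83 (591 against 333). TGFBR2 and TGFBR1, the type II and type I TGF-beta receptors, differed by 0.53 and 0.39, and the probe sets of TGFBR1 gave -0.28 and 1.06. ACVR1 differed by -0.34, ACVR2B by -0.31 and ACVR2A by -0.04.

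Among the receptor and common SMADs, SMAD1 differed by -0.09 and SMAD3 by 0.19. SMAD2 and SMAD4 both averaged -0.04 over probe sets of opposite sign, from -0.73 to 0.89 for SMAD2 and -0.68 and 0.60 for SMAD4. The mean of SMAD5, a BMP-branch SMAD, was 0.89, but its brighter probe set gave 0.19 and the other was near background in the control. SMAD5 passed through the LYAR-shRNA array alone, which fixes the sign of its mean. SMAD9 did not pass.

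Of the secreted antagonists FST was the one past 2-fold. With the series values, which hold 2 of its 3 probe sets, 0 antagonists were counted at least 2-fold lower. As measured, the FST probe sets ranged from -3.86 to -1.95. FST, which encodes follistatin, a protein that binds activins and some BMPs, measured 99.6 with LYAR shRNA and 634 in the control. Its brightest probe set, above background on both arrays, measured 177 against 685, a difference of -1.95. Of its 3 probe sets 1 was near background with LYAR shRNA and gives a bound of at least 10.7-fold lower, so the mean of -2.67 is a value as measured only. NBL1 and CHRD, which bind BMPs, differed by -0.40 and -0.28, and TWSG1, which works with CHRD, by 0.35. Of 17 antagonists 6 passed, 5 of them below 0, beside 5753 of all 12682 passing genes.

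Genes that store and release latent TGF-beta were led by ITGAV and LTBP1. ITGAV, the integrin subunit that helps to release active TGF-beta, measured 704 against 318, a difference of 1.15. LTBP1, which tethers latent TGF-beta to the matrix, measured 542 against 270, at 1.00 with both probe sets from 0.98 to 1.03, and fell under 2-fold when the arrays were centred. LTBP4 differed by 0.34, while LTBP3 differed by -0.96 (126 against 245) and the ligand-processing protease gene FURIN by -0.44. At 2-fold or more, 2 listed genes were higher and 0 lower, beside 5.06% and 3.56% of all passing genes. These counts were 1 and 1 with the arrays centred, with quantile normalization and with the lowess trend removed. With the series values and with a pseudocount of the random intensity they were 1 and 0. The median of the 10 listed genes was 0.32. Of the 6 that passed, 4 were above 0 and 2 below, beside 6929 of all 12682 passing genes above 0. The median was -0.03 with values raised to the background limit, which gives every gene under both limits the same -0.11. In the other settings it was 0.23 to 0.34.

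Among the intracellular regulators, BAMBI stood out. BAMBI is a pseudoreceptor that dampens TGF-beta and BMP signals and is itself induced by BMP and by Wnt signals. Its level was 3922 with LYAR shRNA and 1307 with scramble shRNA, which differ by 1.58, and its probe sets gave 1.56 and 1.61. The corepressor gene SKI, the family member of SKIL, differed by -0.95 (135 against 259). TGIF1 and PMEPA1, inhibitors of TGF-beta signalling, differed by -0.45 and -0.47. FKBP1A, which guards type I receptors, differed by 0.59. RNF111, a ubiquitin ligase that removes SKIL and SMAD7, averaged 1.17 over 3 probe sets, of which 2 were near background in the control, and the brightest gave 0.54. Of 22 regulators 16 passed, 8 on each side of 0.

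Other genes known to be induced by the pathway went both ways. In the BMP-induced list 5 of 9 passed, 4 above 0 and 1 below, beside 6929 of all 12682 passing genes above 0. The median was 0.04 over all 9 and 0.23 over those that passed, and ranged from -0.17 to 0.74 over the settings. Besides BAMBI, RUNX2, a bone transcription factor, was higher at 1.25 (665 against 280), MSX2 differed by 0.23 and DLX5 by -0.91. DLX5, at 64.2 against 120, passed through the control array alone, which fixes its sign. The remaining ID gene, ID4, did not pass. In the TGF-beta-induced list 18 of 25 passed, 9 on each side of 0, and the median was 0.02 over all 25 and -0.04 over those that passed. SNAI1, a repressor of epithelial genes, was lower at -1.15 (399 against 886) and JUNB, an AP-1 subunit, differed by -0.71. TSC22D1 differed by 0.90 in both probe sets, and TGFBI by 0.93 over probe sets from -0.12 to 1.83. TGFBI passed through the LYAR-shRNA array alone, which fixes the sign of its mean. CCN2, a matricellular protein, differed by 0.49. The E proteins that ID proteins bind were TCF3 at -0.29 and TCF12 at 0.55, and TCF4 did not pass.

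Markers of other cell types were examined because ligands and antagonists of this pathway are made by stroma and blood cells. Of 8 fibroblast markers 1 passed, COL1A1 at 0.79, and the list summed to an intensity of 493 and 387. None of 4 endothelial markers passed, with sums of 139 and 123. Immune markers passed for 3 of 6, with sums of 408 and 936. Of these CD14 was above background on both arrays, at 215 against 343, while CD79A and CD3E passed through the control array alone and were at least 5.13-fold and 1.75-fold lower. Red cell markers passed for 3 of 4, all through the control array alone, with sums of 211 and 1172. HBA1 measured 89.4 against 496, HBB was at least 3.87-fold lower, and the HBD probe set above background on both arrays measured 66.0 against 202. The labels name 1 cell line sorted on GFP and no other cells, and the part of these markers in the lower values of FST, GDF9, INHBB, ID1 or ID3 was not tested. In bulk RNA, fewer cells that express a gene and less RNA per cell cannot be told apart.

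**Figure D5:**
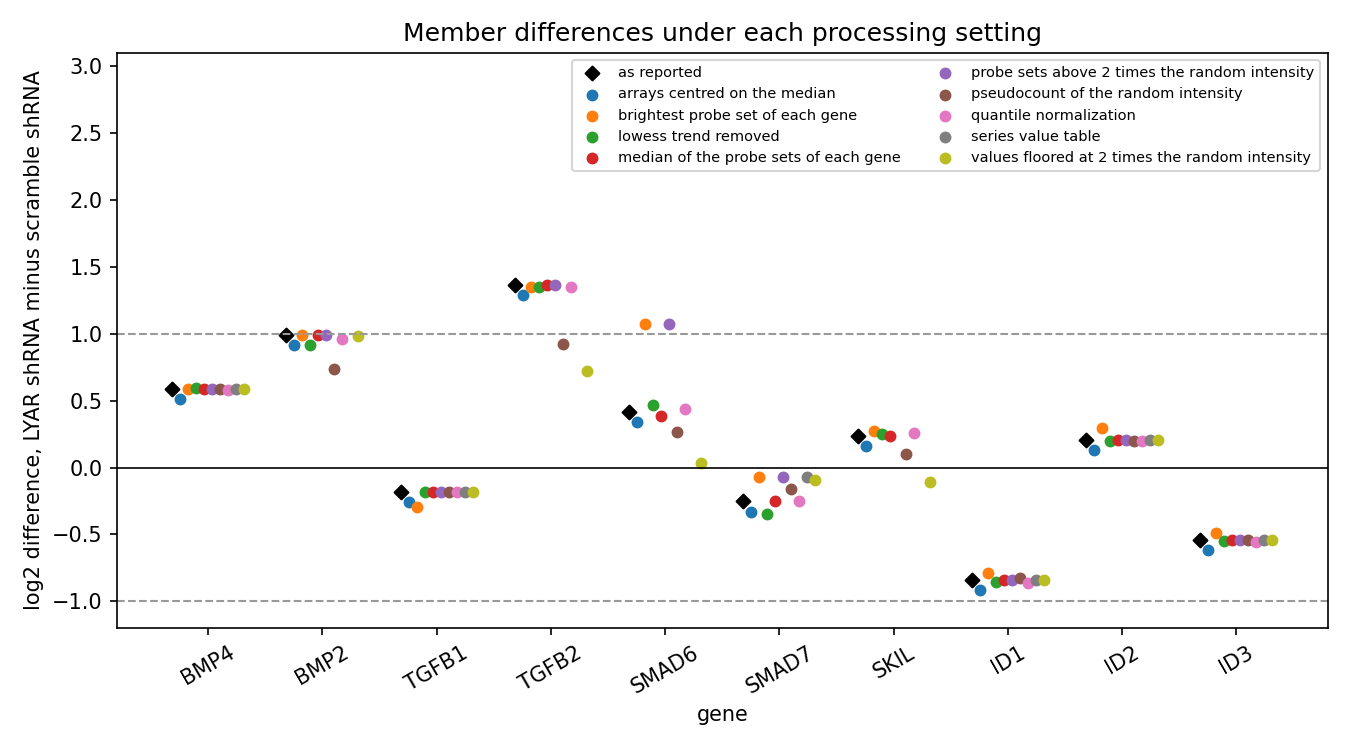
Log2 difference (LYAR shRNA minus scramble shRNA) of each of the 10 genes as reported (diamonds) and under each other setting that gives it a value (circles), with dashed lines at 2-fold. ID1 stays between -0.91 and -0.79, ID3 between -0.62 and -0.49 and BMP4 between 0.52 and 0.60, while TGFB2 ranges from 0.72 to 1.37 and SMAD6 from 0.03 to 1.07.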

How the data were processed

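Total RNA from 2 HCT15 cultures was reverse transcribed with oligo dT, labelled with Cy3 and hybridised to NimbleGen arrays, per the labels' protocols. The deposited files hold linear intensities per probe set that the authors computed with RMA, per the submitters' processing notes. No source used here states the RMA settings or the arrays normalized as a set. If RMA gave both arrays a shared distribution, a shift of most genes one way would not be visible. Probe sets and hg18 positions follow the file headers, and 45031 of 45033 probe sets had 3 probes. A deposited column named as a standard error has no stated scale and was not used.

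Symbols were updated by gene ID from the RefSeq table of GRCh38.p14, without its coordinates. Probe sets of a gene were averaged as log2 intensities, with no pseudocount (Python 3.11.15, pandas 2.3.3). A value under 2 times the random control intensity was treated as a bound. The gene step was run on simulated data with known folds and noise far smaller than the spread between probe sets. That checks the computation only and says nothing about the differences reported here. The members, lists, thresholds and alternatives were chosen with earlier results of these data known. All members were named, then in each list every passing gene at 2-fold or more and up to 3 in each direction. Some genes outside that rule (CCN2, SMAD9, ID4, TCF4, KRT20, CDX1) were named after their values were seen. Promoter windows of 300 bases came from RefSeq and were found for 9 of the 10 members. No test was made because each group has 1 array, and the number of arrays limits the precision. The closing section gives the effect of 11 alternatives, of which 1 (values raised to the background limit) was chosen after seeing the data.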

Additional observations from a re-analysis of the deposited data

How the results depend on the processing

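The directions of ID1, ID3, BMP4, TGFB1 and ID2 held in every setting that gave them a value. BMP2, TGFB2, SMAD6 and SMAD7 kept their signs too, but the settings cannot check these. BMP2 and TGFB2 passed the filter through the LYAR-shRNA array alone, and SMAD6 passed it in no setting. The SMAD7 mean takes in a probe set near background on both arrays. SKIL became -0.11 with values raised to the background limit, the value which that setting gives any gene under both limits. It comes from the unequal limits of 60.7 and 65.4 and gives no direction for SKIL. The series value table holds 10 of the 19 member probe sets and gives no value for BMP2, TGFB2, SMAD6 or SKIL, so the TGF-beta ligand median became that of TGFB1 alone and reversed to -0.18. The inhibitory SMADs moved from a median of 0.08 to 0.50 with the brightest probe set or with probe sets above background, both of which take SMAD6 from 1 probe set. The 1 member at least 2-fold higher, TGFB2, was 0 with the brightest probe set, the series table, centring, quantile normalization, the pseudocount of 31.5, probe sets above background and values raised to the limit; in each of these except the series table, which lacks it, TGFB2 no longer passed the filter. The 3 members at least 1.5-fold higher were 1 with the brightest probe set, the series table, centring, quantile normalization and probe sets above background, and the 1 member lower was 2 with centring, where ID3 passed 1.5-fold. The setting of probe sets above background kept those above the limit on at least 1 array. TGFB2 and BMP2 therefore kept their values there (1.37 and 0.99) and were lost to the filter, whose median was taken anew. Pathway genes at 2-fold or more were 3 higher and 1 lower with the series table, 4 higher and 2 lower with probe sets above background, and 4 higher with the pseudocount and with values raised to the limit. The pathway median moved to -0.092 with centring. With values raised to the limit it was -0.11, again the value set by the unequal limits. Pathway counts turned to 5 higher and 6 lower with centring and quantile normalization and 6 and 6 with the lowess trend removed, and those over all genes to 522 and 582 with centring and 546 and 567 with lowess. At least 2-fold higher were 154 genes and lower 95 with the series values, and 613 and 533 at 1.5-fold. With probe sets above background they were 315 and 198, and 1087 and 815. With no filter they were 1167 and 1025, and 3485 and 3176. With the pseudocount 407 and 296 passed 2-fold. Leaving out an array was not possible with 1 per group. No paired analysis was possible because each group has 1 sample.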

Other observations

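Promoter windows of the other members held the searched motifs in places, as a description of letters only. The SMAD6 window held GTCTAGA on both strands, overlapping 12 to 5 bases before the start, a motif present in 1.44% of all windows. SMAD7 had 3 windows, of which the first held 2 CAGAC matches and the second 1. BMP4 also had 3 windows, each with 1 CAGAC, and the first had 2 GGCGCC matches. TGFB2 held 2 CAGAC matches, SKIL 1 CAGAC and 1 GGCGCC, and TGFB1 none of the 4 motifs. No member window held GGTTAT.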
